A study of Caenorhabditis elegans with 4 samples.

Results

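The miR-58 family is a group of *C. elegans* miRNAs whose 5′ end resembles that of bantam, a miRNA that promotes growth in *Drosophila*. Its members were chosen by name: the rows of the deposited count table named cel-mir-58, cel-mir-58a, cel-mir-58b, cel-mir-80, cel-mir-81 or cel-mir-82. Of these 6 names, 4 were present (miR-58, miR-80, miR-81 and miR-82), out of 148 miRNA names in the table, and the 4 names stood on 7 of its 219 rows. The study sequenced small RNA from whole larvae of the first larval stage (L1) of N2, the wild type, and of *pry-1(mu38)* animals, called the mutant here, in 2 replicate libraries of each. *pry-1* encodes an Axin, a scaffold protein that restrains WNT signalling. Both strains were grown at 20 °C on standard plates and synchronized by repeated bleaching, and the labels name no other allele or transgene. The study states that the mutant grows more slowly than N2, and took it at a later hour for quantitative PCR. Its methods give no hour of harvest for the sequenced larvae, so strain and developmental age cannot be told apart here. Nothing states whether the 2 libraries of a strain came from separate cultures, so the p-values measure the spread between libraries, which may be technical. In RNA of whole animals, fewer cells that make a miRNA and less of it per cell cannot be told apart.

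miRNAs are short RNAs that guide Argonaute proteins to messenger RNAs, and pairing of the seed (bases 2 to 8) with the 3′ UTR is the main determinant of target choice. Members of a family share most or all of the seed and can therefore repress the same messages. The miR-58 family is among the most abundant in the worm. Animals that lack its members together have defects in body size, egg laying, locomotion and dauer-related behaviour, while single mutants show little, and components of TGF-β signalling, the p38 MAPK *pmk-2* and the cell death gene *egl-1* are known targets. None of these targets was measured here.

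The mature sequences below are shown because the members have a common 5′ end, which reaches to base 7, and because miR-81 and miR-82 are nearly identical. They were taken from the study's supplementary list of known miRNAs and run 5′ to 3′, with bases 2 to 8 in capitals.
miR-58: uGAGAUCGuucaguacggcaa
miR-80: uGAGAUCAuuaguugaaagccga
miR-81: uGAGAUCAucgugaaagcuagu
miR-82: uGAGAUCAucgugaaagccagu
miR-2209a: aGAGAUCAgcgguuacacuaca

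The seed of miR-80, miR-81 and miR-82 was GAGAUCA and that of miR-58 was GAGAUCG, so the 4 members shared their first 7 bases. Of the 157 known miRNAs listed with a sequence, 5 (3.18%) held GAGAUC at bases 2 to 7. These were the 4 members and miR-2209a, which is not in the family by name. In miR-1018 the same letters started at base 4. Counted from the 5′ end, miR-81 and miR-82 were identical at 21 of 22 positions and differed by U19C (miR-81 has U at position 19 and miR-82 has C). Their first 18 bases were the same, so a read that ended before base 19 could not be assigned to one of them, and how such reads were counted is not given in the sources used here. miR-80 matched miR-82 at 10 of 22 positions and miR-58 matched miR-82 at 13 of 21. The mature forms were 21 to 23 bases long, so differences in length between members were small. Capture of small RNAs can depend on their sequence, which was not measured here, so the order of the members is an order of read counts.

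The 4 genes lie at 3 places of WBcel235. miR-58 (annotated as cel-mir-58a) is on chromosome IV from 3233254 to 3233350 on the plus strand, in an intron of the protein-coding gene Y67D8A.2 on the same strand, with 0 other miRNA genes within 20 kb. miR-80 is on chromosome III from 8865270 to 8865367 on the minus strand, outside protein-coding genes. Its neighbours are miR-238, 1961 bp away on the same strand, and miR-90, 8620 bp away. miR-81 (chromosome X, 2431072 to 2431179, plus strand) and miR-82 (chromosome X, 2435258 to 2435354, minus strand) are 4079 bp apart on opposite strands. Both lie in introns of *gid-2*, and only miR-82 is on the strand of that gene.

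In stretches of the table the columns are displaced against each other, so a printed row can mix miRNAs, and each member was placed by its read total over the 4 libraries. The row of miR-82 met its total as printed, with a sum of 1804399 counts. The total of miR-80 (731878) was met with N2 replicate 2 taken from 1 row further down. That of miR-81 (634081) needed N2 replicate 2 and mutant replicate 2 from 1 row further down, and that of miR-58 (394125) needed N2 replicate 2 from 1 row further up. All 4 sums equalled the listed total exactly, and for the 3 displaced members a single combination of nearby cells did so. Read as printed, miR-80 would have 1073 counts in N2 replicate 2 in place of 258224, and miR-81 would have 38 in that library and 5 in mutant replicate 2 in place of 159754 and 174395.

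The libraries held 6651178 and 6491918 counts in N2 and 3284425 and 4651818 in the mutant. Of the miRNAs in the table, 86 were matched to their totals, 5 of these (miR-237 included) only by a sum within 0.1%. Of the 86, 2 with identical counts were entered once, and 84 passed the filter on low counts, all 4 members among them. Mutant replicate 2 stood apart. Markers of later larvae were *lin-4*, miR-48, miR-84, miR-241, miR-237 and *let-7* (6 of 6 matched, none at 0). They summed to 3207 TMM-normalised CPM there, against 1053 in mutant replicate 1 and 500 and 618 in N2. These CPM are counts relative to library size, scaled by a trimmed mean of the ratios between libraries. The largest in mutant replicate 2 were miR-237 (1875 CPM) and *lin-4* (752). All of these markers except *let-7* were highest in that library. The same markers, *let-7* aside, are the miRNAs that the study reported as higher in L1 *pry-1(mu38)* animals, by sequencing and by quantitative PCR. For them, larval stage and an effect of the mutant cannot be told apart in these libraries. For *let-7* the highest value was that of N2 replicate 1 (9.24 CPM), with 1.99 in N2 replicate 2. Its mutant values, 4.28 and 7.74, lay between these. The most abundant miRNA, miR-228, took 28.7% of mutant replicate 2 and between 19.1% and 20.5% of the other libraries. The sum of the neuronal miRNAs *lsy-6* and miR-124 was lower in both mutant libraries (81.7 and 88.6 CPM) than in N2 (126 and 114). Taken singly, only *lsy-6* was lower in each mutant library. With 34.4 CPM in mutant replicate 2, miR-124 was above its N2 values of 33.9 and 32.0. The muscle miRNA miR-1 had between 65.5 and 129 CPM. Embryonic miRNAs of the miR-35 family could not be matched (0 of 8). Member values are therefore also given without mutant replicate 2, and the part of later-larva and neuronal miRNAs in them was not tested.

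The family was a large part of every library. Its 4 members together made up 16.6% and 15.9% of the counts in N2 replicates 1 and 2, and 17.0% and 18.8% in mutant replicates 1 and 2. The 95% Wilson intervals of these and all member shares were at most 0.0406 percentage points to either side and cover counting error only, since PCR copies of 1 molecule were not told apart. Both mutant libraries were higher than both N2 libraries, by 1.69 percentage points between the strain means (16.2% ± 0.501 and 17.9% ± 1.32, SD, n = 2 libraries each). Without mutant replicate 2 the difference was 0.758 percentage points. The order did not hold after TMM scaling, which gave the family sum 188596 and 146348 CPM in N2 and 170464 and 178394 in the mutant, so that the mutant libraries lay between the N2 libraries. As a sum over the chosen members, the share was not tested.

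**Figure D1:**
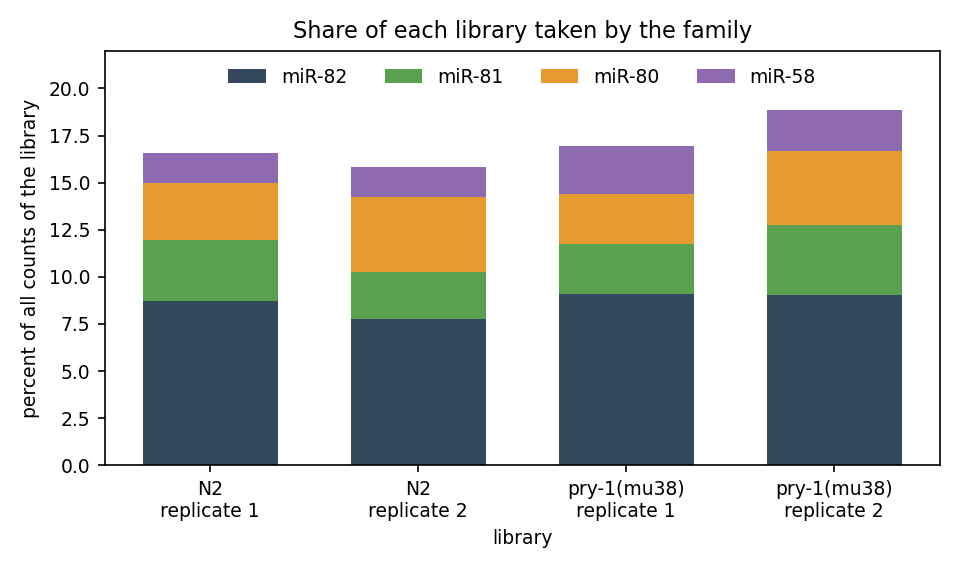
Stacked bars give the percent of all counts of a library taken by each of the 4 members, for the 2 libraries of each strain. miR-82 is the largest part of every bar, and the bars reach from 15.9% in N2 replicate 2 to 18.8% in mutant replicate 2.

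miR-82 was the leading member everywhere. It held 52.7% and 49.1% of the family's counts in N2 and 53.7% and 47.9% in the mutant, and its count ranked between 3 and 5 among all counts of the library. miR-80 ranked between 6 and 10 and miR-81 between 7 and 11. miR-58 ranked 14 in both N2 libraries, and 12 and 11 in mutant replicates 1 and 2. The identical counts of miR-44 and miR-45 entered separately in these ranks and in the library totals behind the shares. Summed over the 4 libraries, miR-82 stood behind miR-228 (4597473 counts), miR-90 (2679127), miR-235 (2107482) and miR-72 (1939626) among the matched miRNAs. The order of the members was miR-82, then miR-80 and miR-81, then miR-58. miR-80 and miR-81 could not be ordered, since their ratio was 0.950 and 1.62 in N2, against 1.02 and 1.05 in the mutant. miR-58 was the lowest member in each library, but in mutant replicate 1 it reached 0.967 of miR-80 and 0.988 of miR-81.

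The strains were then compared with edgeR's quasi-likelihood test across the 84 miRNAs, of which 1 (1.19%) had an adjusted p-value under 0.05. That call was miR-2209c, a sparsely counted miRNA (13 counts in both libraries of N2, 0 in both of the mutant). Its sum equalled the listed total, but a total this small could not place it by itself. The displacement was taken from the nearest matched miRNA. Without miR-2209c the count was 0. None of the 4 family members passed the threshold. The number of members was also 0 at an unadjusted p-value under 0.05, where 7.14% of all miRNAs stood, and 0 with DESeq2's Wald test, adjusted or not. The median log2 fold change of the members was 0.05, beside 0.04 over all 84 miRNAs, whose median size of change was 0.34. Of the members 0 differed 2-fold or more in fitted values, beside 15.5% of all miRNAs, and 1 had strains that did not overlap, beside 44.0%.

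miR-58 had the largest fitted difference of the 4 members with all libraries. Without mutant replicate 2, or with upper-quartile normalization, that of miR-80 was larger in size (-0.60 and -0.34, against 0.48 and 0.27 for miR-58). miR-58 had 103516 and 106054 counts in N2 and 84724 and 99831 in the mutant, from libraries of unequal depth. After TMM scaling these were 17720 and 15078 CPM in N2 and 25914 and 20329 in the mutant. Both mutant libraries were higher than both N2 libraries, with 16399 ± 1868 CPM in N2 and 23122 ± 3950 in the mutant (SD, n = 2 libraries each). Of all miRNAs tested, 21.4% were higher in the mutant without overlap. The log2 fold change was 0.50 with a standard error (SE) of 0.23 (edgeR's quasi-likelihood test, adjusted p = 0.488), a fold of 1.41. It was 0.48 without mutant replicate 2, and the size of the change stood at percentile 61.9 of all miRNAs tested. In 6 scalings of the libraries miR-58 lay between 0.42 and 0.45 above the median log2 fold change of all miRNAs. A scaling shifts all miRNAs nearly alike, so this distance could hardly move and is no check of the difference. The fitted value itself ran from 0.27 (upper-quartile normalization) to 0.57 (library totals alone).

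miR-80 had 203399 and 258224 counts in N2 and 87655 and 182600 in the mutant. This gave 34818 and 36712 CPM in N2, a close pair, and 26811 and 37183 in the mutant. The mutant libraries lay on either side of the N2 libraries, so the groups overlapped. The log2 fold change was -0.16 with an SE of 0.25 (edgeR, adjusted p = 0.774), and it was -0.60 without mutant replicate 2 and 0.10 without mutant replicate 1. The direction for miR-80 thus rested on which mutant library was used.

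miR-81 varied most between the N2 libraries. It had 36662 and 22712 CPM in N2 and 26232 and 35512 in the mutant, from 214170, 159754, 85762 and 174395 counts. The 1.61-fold difference between the N2 libraries and the 1.35-fold difference between the mutant libraries enclosed the strain means of 29687 ± 9864 and 30872 ± 6562 CPM (SD, n = 2 each). The log2 fold change was 0.06 with an SE of 0.34 (edgeR, adjusted p = 0.981). Without mutant replicate 2 it was -0.35, and without N2 replicate 1 it was 0.44.

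miR-82 had 580635 and 505352 counts in N2 and 299176 and 419236 in the mutant. Its levels were 99395 and 71846 CPM in N2 and 91508 and 85370 in the mutant, so both mutant libraries fell between the N2 libraries. The log2 fold change was 0.05 with an SE of 0.25 (edgeR, adjusted p = 0.976) and -0.08 without mutant replicate 2. The standard errors of the members, 0.23 to 0.34 on the log2 scale, stood beside a median of 0.36 over all miRNAs tested.

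**Figure D2:**
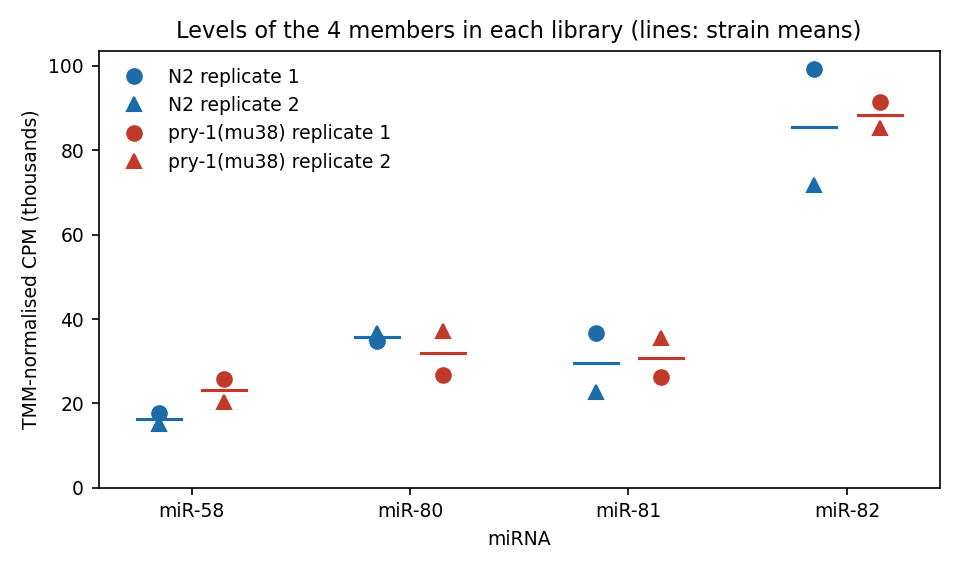
Each point is the TMM-normalised CPM of 1 member in 1 library, in units of 1000, with circles for replicate 1, triangles for replicate 2 and lines for the strain means. The strains separate for miR-58 and overlap for miR-80, miR-81 and miR-82.

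**Figure D3:**
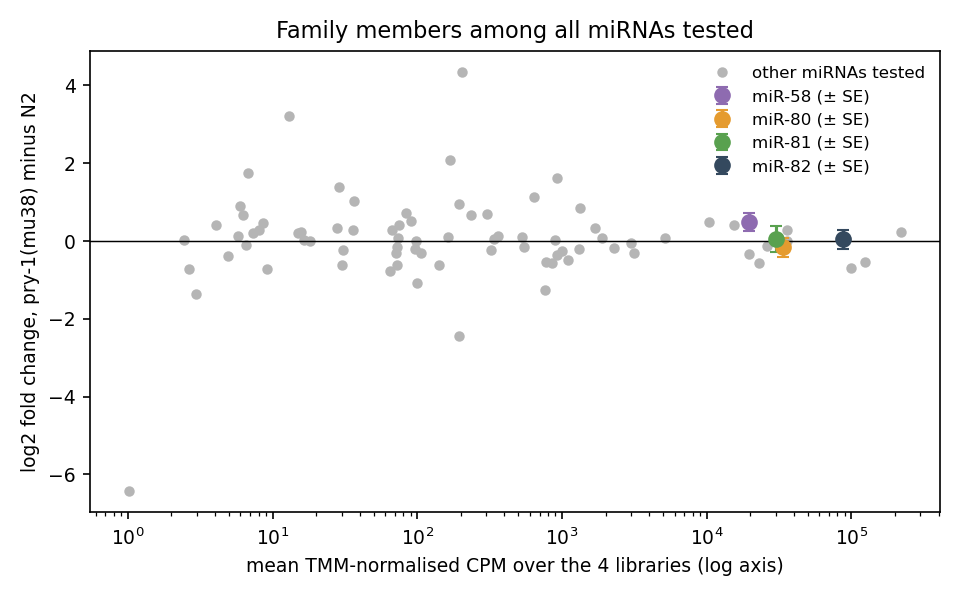
The log2 fold change between strains (above 0, higher in the mutant) is plotted against the mean TMM-normalised CPM on a log axis for the 84 miRNAs tested, with standard errors for the 4 members. The members lie at the abundant end, between -0.16 for miR-80 and 0.50 for miR-58.

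After TMM scaling, used for all folds given here, the 2 mutant libraries were closer on the family sum than on its members. Between the mutant libraries the sum differed 1.05-fold, and the members differed 1.27-fold (miR-58), 1.39-fold (miR-80), 1.35-fold (miR-81) and 1.07-fold (miR-82). This depended on the scaling. By share of the library the family took 17.0% and 18.8% in the mutant, while miR-82 took 9.11% and 9.01%. In N2 the family shares were 16.6% and 15.9%. Over the 83 miRNAs with counts in every library the median absolute log2 difference was 0.479 between the mutant libraries and 0.315 between the N2 libraries, and 7 miRNAs were more than 4-fold apart between the mutant libraries. No member was among those, and each member was below the median difference of the mutant libraries. In N2 the family sum differed 1.29-fold and the members between 1.05-fold (miR-80) and 1.61-fold (miR-81), so that miR-81 and miR-82 (1.38-fold) were above the median difference there.

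Ratios between members within a library do not depend on the scaling. The ratio of miR-82 to miR-81, the chromosome X neighbours, was 2.71 and 3.16 in N2, against 3.49 and 2.40 in the mutant. The mutant libraries held both the highest and the lowest value, and the mean log2 ratio differed by -0.02 between the strains (two-sided exact permutation test, p = 1). The ratio of miR-80 to miR-82 was 0.350 and 0.511 in N2, against 0.293 and 0.436 in the mutant (exact permutation p = 0.667). In both strains replicate 2 was the higher one, and the difference between replicates was larger than that between strains. The ratio of miR-58 to miR-82 was 0.178 and 0.210 in N2, against 0.283 and 0.238 in the mutant. Its ratio to miR-80 was 0.509 and 0.411 in N2, against 0.967 and 0.547 in the mutant. The ratios of miR-58 to these 2 members did not overlap between strains, while its ratio to miR-81 did (0.483 and 0.664 in N2, 0.988 and 0.572 in the mutant). With 2 libraries against 2 the exact test allows no p below 0.333, the value for both separate ratios, and over the 6 ratios compared every adjusted p was 1. The ratios with miR-58 and that of miR-80 to miR-81 were added after the data had been seen.

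**Figure D4:**
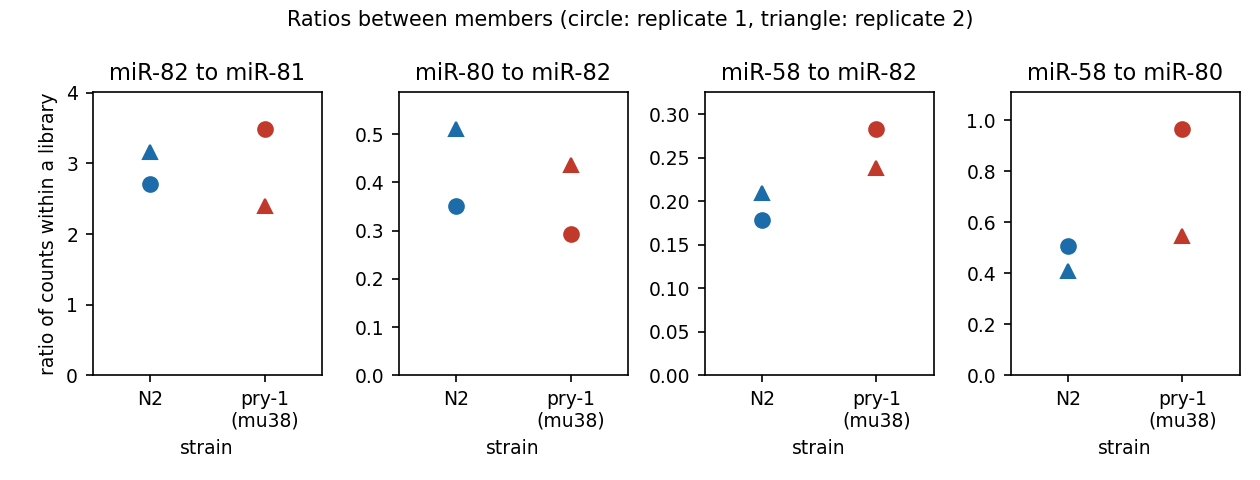
Each point is the ratio of the counts of 2 members within 1 library, with circles for replicate 1 and triangles for replicate 2. The strains overlap for miR-82 to miR-81 and miR-80 to miR-82, and the mutant lies above N2 for miR-58 to miR-82 and miR-58 to miR-80.

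miR-58 and miR-80 each had a second row of the same name, without an arm label, next to the main one. Taken at the same displacement as the main row, which no read total checks, the second row of miR-58 had 2667 and 4522 counts in N2 and 1985 and 2160 in the mutant. That was 2.58% and 4.26% of the main row in N2 and 2.34% and 2.16% in the mutant. The second row of miR-80 had 686 and 1073 counts in N2 and 826 and 1063 in the mutant, or 0.337% and 0.416% of the main row in N2 against 0.942% and 0.582% in the mutant. For miR-58 this percent was lower in both libraries of the mutant, and for miR-80 it was higher in both. Each comparison had an exact permutation p of 0.333, the smallest possible, and was made after the rows had been seen. Neither miR-2209a, which shares the seed of miR-80, nor miR-1018 had counts that could be matched. Under its own name miR-2209a had 336 counts in N2 replicate 1, where the members had between 103516 and 580635.

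Neither neighbour of miR-80 passed the test. miR-238 had 4821 and 5246 CPM in N2 and 5459 and 5121 in the mutant. Its fitted log2 difference was 0.07 with an SE of 0.19 (edgeR, adjusted p = 0.929). miR-90 had 159656 and 135097 CPM in N2 and 116706 and 84437 in the mutant, lower in both mutant libraries. Its fitted log2 difference was -0.55 with an SE of 0.26 (edgeR, adjusted p = 0.488). The profile of the family sum over the 4 libraries was compared with those of 42 other miRNAs of at least 100 CPM on average, by the Euclidean distance between centred log2 CPM. The nearest were miR-72 (distance 0.188), miR-64 (0.267) and miR-87 (0.274), against a median of 0.667. miR-72, which shares a seed with the vertebrate miR-31, had 93756 and 87432 CPM in N2 and 91545 and 97265 in the mutant. Over so few libraries such likeness is a description only.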

How the data were processed

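The 4 libraries (2 of N2, 2 of *pry-1(mu38)*) held small RNA of L1 larvae in reads of 50 bases. The values the authors deposited are raw counts of reads, not normalized, assigned to miRBase miRNAs with miRDeep2 on WBcel235, while BWA and DESeq are named in the submitters' processing notes. Tool versions, adapter removal and what was done with reads matching more than 1 miRNA are not given in the sources used here, and the design text and the methods name different Illumina instruments. Columns carry the strain letter and replicate number.

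Placement used read totals from the study's supplementary list, which served no other purpose. N2 replicate 1 kept its row, and cells of the remaining libraries could come from as far as 3 rows off. A displaced match was accepted by itself from 1000 reads, if no other combination came within 10 reads, or from 100 reads if 2 successive miRNAs shared a displacement. Other matches needed the displacement of the nearest matched miRNA, with the exact sum or one within 0.1%. Of 126 names with a total, 40 were not matched.

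Counts were tested with edgeR 4.0.16 (R 4.3.3): library sizes over all rows, TMM, filterByExpr with its minimum of 10 counts, glmQLFit and glmQLFTest, two-sided, Benjamini-Hochberg adjustment, threshold 0.05, no covariates. The standard error was the log2 fold change divided by the square root of F. DESeq2 1.42.0 was an alternative. Wilson intervals came from SciPy 1.17.1, and gene positions from the Ensembl annotation of WBcel235. Scripts were tested on simulated data. Named miRNAs are the members, relatives by sequence, miRNA genes within 20 kb, the 3 most abundant others and the 3 nearest profiles. The members and lists were chosen with earlier results of these data known, and miR-58 entered the tests once its row was seen. The check of the replicate numbers, which nothing describes as shared cultures, gave a correlation of deviations of 0.312 across 84 miRNAs.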

Additional observations from a re-analysis of the deposited data

How the results depend on the processing

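Precision is limited by 2 libraries per strain, not by depth. No alternative called a member. Leaving aside single libraries and the rows as deposited, the log2 fold change lay from 0.27 to 0.57 for miR-58, from -0.34 to -0.09 for miR-80, from -0.10 to 0.16 for miR-81 and from -0.16 to 0.13 for miR-82. It turned with upper-quartile normalization for miR-81 (-0.10) and miR-82 (-0.16). That normalization shifted the miRNAs tested by a median of -0.21. For miR-82 the log2 fold change also turned without a filter (-0.00074) and with at least 10 counts in every library (-0.0087). The rows as deposited gave 0.95 for miR-80, -0.55 for miR-81 and 1.43 for miR-58, whose printed rows hold displaced counts. miR-82, whose own counts are the same as printed, gave -0.038 in that fit. With the rows as deposited the difference in family share moved to 3.84 percentage points. The log2 ratios moved to 1.51 (miR-82 to miR-81) and 3.71 (miR-80 to miR-82). Without miR-228 in the total the share differed by 3.70 points. Of all miRNAs, 0 were called by edgeR with scaling without the family or without miR-228, no filter, at least 10 counts, the replicate block, the rows as deposited, or without miR-2209c (added after seeing the data), with 2 to 17 at an unadjusted p-value under 0.05 wherever 0 were called. Without each library in turn the count ranged from 0 to 10 (added after seeing the data; the lone library of a strain is assumed to vary like the others), 0 without either N2 library, 10 without mutant replicate 1 and 5 without mutant replicate 2, with 0 members. The values then ranged from 0.36 to 0.62 for miR-58, -0.60 to 0.10 for miR-80, -0.35 to 0.44 for miR-81, -0.17 to 0.30 for miR-82, 0.758 to 2.62 points for the share, -0.28 to 0.25 for the log2 ratio of miR-82 to miR-81 and -0.53 to 0.04 for that of miR-80 to miR-82. With the replicate block the log2 fold changes were 0.49, -0.18, 0.08 and 0.06 for miR-58, miR-80, miR-81 and miR-82. The adjusted p-value of miR-58 was 0.156 in that fit (edgeR's quasi-likelihood test), against 0.488 in the main fit. It was the lowest of a member in any alternative, so the evidence for miR-58 depended on the model. The alternatives for miR-58 were added after its row was seen. Except where named, the cause of a change was not tested.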
